A study of Mus musculus with 49 samples.

Results

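The 10 genes described here encode the core of bile acid synthesis, conjugation and transport in hepatocytes, and they were taken by name from the 46078 gene identifiers of the count table, in which each of the 10 matched 1 identifier. Cyp7a1, Cyp8b1, Cyp27a1, Cyp7b1, Baat and Slc27a5 form the synthesis and conjugation group (6 genes). Slc10a1, Slco1b2, Abcb11 and Abcc2 form the transport group (4 genes). Their transcripts were followed through 49 libraries of 16 conditions, from the fresh hepatocyte through its culture to aggregates and intestinal organoids.

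Bile acids are made from cholesterol in the liver. Cyp7a1 opens the classical pathway and is its rate-limiting enzyme, Cyp8b1 adds the hydroxyl group that makes cholic acid, and Cyp27a1 and Cyp7b1 carry the alternative pathway that starts in mitochondria. Slc27a5 joins the bile acid to coenzyme A and Baat transfers it to taurine or glycine. Slc10a1 (Ntcp) and Slco1b2 (Oatp1b2) take bile acids and other organic anions up from the blood at the basolateral membrane, Abcb11 (Bsep) pumps bile salts into the bile canaliculus, and Abcc2 (Mrp2) exports conjugated organic anions there. Abcc2 is also known from the apical membrane of the small intestine.

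All samples carried the label C57BL/6J and a wild-type genotype. Hepatocytes came from adult mice 10 weeks of age, by collagenase digestion and repeated centrifugation to remove non-parenchymal cells, and were sequenced fresh (FH, n = 3) or after 3 h, 1, 2, 4, 7 and 14 days in monolayer culture on collagen with epidermal growth factor at 20 ng/mL (n = 3 each). Further hepatocytes were cultured for 7 days with 0.3 µM verteporfin, an inhibitor of Yap activity, or with its solvent DMSO (n = 2 each). dediHeps are the expandable progenitor-like cells that such cultures give rise to (n = 5), and they were also grown as aggregates in ultra-low attachment wells (n = 3), as spherical organoids in Matrigel (dediHep-SOs, n = 3) and, after transfer of Cdx2 with a retrovirus, as budding organoids (dediHep-BOs, n = 3). CLiPs are hepatocytes dedifferentiated with small molecules (n = 3). The intestinal references were spherical organoids of fetal intestinal progenitor cells from day 13.5 embryos (FIPC-SOs, n = 3) and budding organoids of adult crypts (ISC-BOs, n = 4). Labels of the aggregates, dediHep-SOs and dediHeps share culture names, so some libraries derive from the same culture. Where nothing in the labels says that replicates came from separate animals, p-values measure the spread between these libraries only.

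Library totals ran from 861047 counts (14 days, replicate 3) to 3872936, with a median of 1976760. Levels are CPM, counts scaled to a common library size on TMM-scaled totals over all 49 libraries, where 3 counts, the smallest number told apart from 0, correspond to 0.671 to 3.91 CPM. Intervals and floors cover counting error only. The method reads the 3′ end of each transcript, so a level does not grow with transcript length. A gene was called when the false discovery rate (FDR) over all genes tested was under 0.1 and the absolute log2 fold change was over 2. The summed level of 8 hepatocyte markers ran from 15330 to 19180 CPM in FH and from 1021 to 1438 CPM at 14 days, and stayed at 105 to 145 CPM in dediHep-SOs. Alb, the largest of the 8 in FH, held 11111 counts over the 3 FH libraries and 11807 at 3 h. A gene cannot exceed 4096 counts per library, the number of molecule tags (UMI sequences), so the sum is an underestimate in FH and at 3 h. A sum of 6 Kupffer and leukocyte markers was 62.8 to 196 CPM in FH, 2.03 to 3.59 CPM at 3 h, 9.16 to 107 CPM at 14 days and at most 1.02 CPM in dediHeps, and the sum of 6 endothelial markers was 176 to 304 CPM in FH and at most 0.965 CPM in dediHeps. The sum of 6 stellate cell and fibroblast markers was 17.95 to 31.5 CPM in FH, 49.2 to 240.2 CPM at 14 days and at most 2.16 CPM in dediHeps. The sum of 6 cholangiocyte markers was 17.0 to 103 CPM in FH, 638 to 675 CPM at 3 h, 1129 to 1364 CPM at 14 days and 1022 to 1636 CPM in dediHeps. At 3 h nearly all of this cholangiocyte sum was Sox9, at a mean of 619 CPM beside 55.4 CPM in FH. Spp1 was at 32.5 CPM at 3 h, Krt19 had no count, and Krt7, Epcam and Cftr were at 3.72 CPM or less. The part of other cell types in the differences between FH, the culture times and dediHeps was not tested. The 3 h libraries carry the numbers 4 to 6 in the labels, where FH and the other time points carry 2 to 4. In these bulk samples, fewer cells of a type and less RNA per cell cannot be told apart.

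In GENCODE M21 (GRCm38) all 10 are protein-coding genes. On the minus strand lie Cyp7a1 (chromosome 4, 6265612 to 6275633), Cyp8b1 (chromosome 9, 121914356 to 121916305), Cyp7b1 (chromosome 3, 18071950 to 18243338), Baat (chromosome 4, 49489422 to 49506557), Slc27a5 (chromosome 7, 12988346 to 12998192), Slc10a1 (chromosome 12, 80953183 to 80968705) and Abcb11 (chromosome 2, 69238282 to 69342616). On the plus strand lie Cyp27a1 (chromosome 1, 74713574 to 74737892), Slco1b2 (chromosome 6, 141629518 to 141686646) and Abcc2 (chromosome 19, 43782192 to 43840740). Exons of Abcb11 overlap the antisense gene Gm13613 and the pseudogene Gm13614 on the other strand. Those genes held 1 and 4 counts over all libraries, and whether the counting used strand is not given in the sources used here.

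Promoters of 6 of the 10 genes were found in the RefSeq table used here (GRCm38.p6). The 250 bases before the annotated start are shown for Cyp8b1, the enzyme with the highest level in FH, for the uptake carrier Slco1b2, which stayed near 0 in aggregates, and for the export pumps Abcb11 and Abcc2, which were higher there than in dediHeps. Each is written 5′ to 3′ on the gene's strand, with matches to AGGTCA (a nuclear receptor half-site), GTTAAT (an HNF1 half-site) and TATAAA (the TATA box) in capitals on either strand.
Cyp8b1 (chr9:121916306-121916555, minus strand): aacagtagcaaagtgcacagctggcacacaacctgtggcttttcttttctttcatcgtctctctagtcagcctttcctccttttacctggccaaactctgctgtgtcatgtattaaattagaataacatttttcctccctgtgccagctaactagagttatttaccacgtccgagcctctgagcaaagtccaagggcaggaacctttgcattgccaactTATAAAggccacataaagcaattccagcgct
Slco1b2 (chr6:141629268-141629517, plus strand): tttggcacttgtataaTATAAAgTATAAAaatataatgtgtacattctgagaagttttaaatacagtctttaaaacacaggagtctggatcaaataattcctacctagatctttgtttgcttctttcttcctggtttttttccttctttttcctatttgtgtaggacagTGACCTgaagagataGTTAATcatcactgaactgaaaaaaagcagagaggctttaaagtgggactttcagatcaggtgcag
Abcb11 (chr2:69342617-69342866, minus strand): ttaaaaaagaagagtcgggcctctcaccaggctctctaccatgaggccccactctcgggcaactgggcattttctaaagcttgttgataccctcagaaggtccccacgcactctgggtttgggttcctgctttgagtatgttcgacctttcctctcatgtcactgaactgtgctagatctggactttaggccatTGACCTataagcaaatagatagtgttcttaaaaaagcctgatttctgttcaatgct
Abcc2 (chr19:43782058-43782307, plus strand): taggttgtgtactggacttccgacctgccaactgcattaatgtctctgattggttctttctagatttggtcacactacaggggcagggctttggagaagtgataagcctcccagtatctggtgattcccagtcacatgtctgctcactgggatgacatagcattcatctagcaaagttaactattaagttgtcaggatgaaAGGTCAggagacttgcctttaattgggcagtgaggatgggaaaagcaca
The Cyp8b1 window held TATAAA 31 bases before the start and no match to AGGTCA. Variants of this half-site were not searched. The letters AGGTCA began 81 bases before the start in Slco1b2, 56 in Abcb11 and 49 in Abcc2, on the opposite strand in Slco1b2 and Abcb11 and on the same strand in Abcc2. Slco1b2 also held GTTAAT, 66 bases before the start, and 2 copies of TATAAA more than 200 bases away. Of the 32851 promoter windows of this length, 14% held AGGTCA, 12.4% TATAAA and 6.43% GTTAAT. A match is a string of letters and not a shown binding site. The RefSeq start of Abcc2 lies within the GENCODE gene, downstream of its first annotated base.

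The first question was how the genes changed as hepatocytes were plated and dedifferentiated. At 3 h 0 of the 10 were called by edgeR or DESeq2, with 4 at an unadjusted p under 0.05, against 3.85% of the 12443 genes tested that were called lower and 3.06% called higher. Within 1 day all 10 were called lower (10.9% of all genes tested), and the same count held at 2 days (12.1% of all genes), 4 days (12.4%) and 14 days (15.3%). At 7 days 9 were called lower (12.8% of all genes), since the fold change of Abcc2 stopped short of the threshold. The median log2 fold change of the 10 genes was -0.23 at 3 h and -4.62 at 1 day, beside medians of -0.07 and -0.03 over all genes tested. The 6 comparisons share the 3 FH libraries. They also share a low-count filter, which a gene near 0 at later times passed through its level in FH or early in culture.

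**Figure D1:**
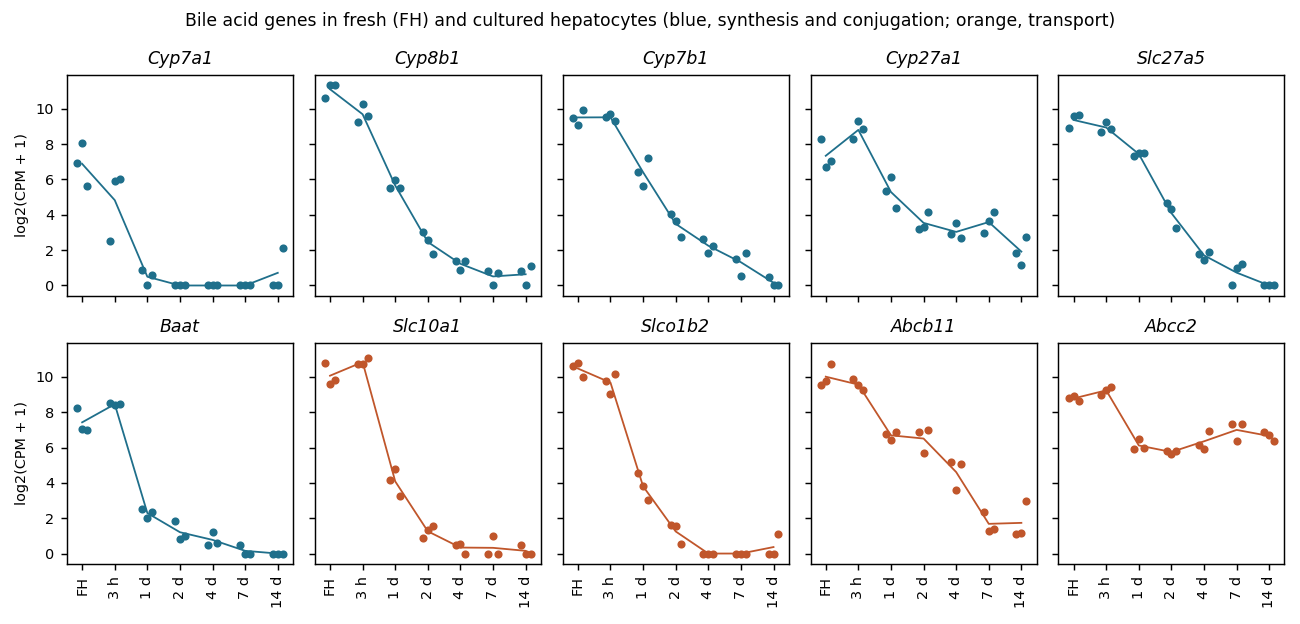
Level of each gene, log2(CPM + 1), in the 3 libraries of FH and of each time in culture (points) with their mean (lines), synthesis and conjugation genes in blue and transport genes in orange. All panels but that of Abcc2 are at 3 or less in every library at 14 days, while Abcc2 stays between 5 and 8 from 1 day on.

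Cyp7a1, the entry enzyme of the classical pathway, was the first to become undetectable. It stood at 122, 269 and 48.9 CPM in FH and at 4.79, 59.98 and 64.2 CPM at 3 h, where the groups overlapped (log2 fold change -1.74, SE 0.77, adjusted p = 0.155). At 1 day 3 counts were left over the 3 libraries, a level 285-fold lower (95% counting interval 96.9 to 1390). No count was found at 2, 4 or 7 days, which puts the fall at no less than 301-fold at any of these times, at 3 counts over the group. At 14 days all 3 counts were in the library of the lowest depth, replicate 3.

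Cyp8b1, the 12-alpha-hydroxylase, had the highest level of the enzymes in FH, at 1576, 2579 and 2650 CPM. It was at 598, 1214 and 777 CPM at 3 h, below every FH library, with an adjusted p of 0.0170 but a log2 fold change of -1.38 (SE 0.36) inside the threshold. It went on to 44.3, 62.5 and 44.0 CPM at 1 day, 2.41 to 7.22 CPM at 2 days and 0.872 to 1.63 CPM at 4 days. The log2 fold change against FH reached -5.66 (SE 0.43, adjusted p = 3.9e-09) at 1 day and -12.11 (SE 0.62) at 7 days. The count of 2657 for Cyp8b1 in 1 FH library used 64.9% of the 4096 UMI sequences, the highest share of any of the 10 genes, so its level in FH is an underestimate and corresponds to 4285 molecules after correction.

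The alternative pathway fell more slowly at first. Cyp7b1, the oxysterol 7-alpha-hydroxylase, was at 708, 550 and 995 CPM in FH and 746, 845 and 626 CPM at 3 h, with overlapping groups and a log2 fold change of -0.02 (SE 0.38). It was still at 84.3, 48.3 and 146 CPM at 1 day, then at 15.7, 11.5 and 5.78 CPM at 2 days, and a single count was left at 14 days, 3990-fold lower (716 to 158000). All libraries from 1 day on lay below all FH libraries.

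Cyp27a1, the mitochondrial sterol 27-hydroxylase, was the enzyme with the highest share of FH left at 14 days, 1.76%. Its FH libraries were uneven, at 308, 102 and 134 CPM, and the 3 h libraries lay above all of them at 311, 630 and 456 CPM (log2 fold change 1.37, SE 0.49, adjusted p = 0.0711, inside the fold threshold). Without FH replicate 1 the log2 fold change at 3 h was 2.00 (adjusted p = 0.0123) and past the threshold. It was at 40.0, 69.7 and 19.7 CPM at 1 day, 6.72 to 17.2 CPM at 7 days and 1.21 to 5.72 CPM at 14 days. The call at 1 day (log2 fold change -2.24, SE 0.51) was lost without FH replicate 1 (-1.59) or without the third library of 1 day (-1.88).

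Both conjugation enzymes went below detection, at different speeds. Slc27a5, the bile acid CoA ligase, was at 473, 767 and 793 CPM in FH and kept 163, 180 and 177 CPM at 1 day, 25.6% of the FH mean and the highest remainder of any of the 10 genes at that time. It then fell to 8.67 to 24.2 CPM at 2 days and to 0 counts in all 3 libraries at 14 days, at least 1170-fold lower. Baat, the acyltransferase of the last step, was at 300, 130 and 128 CPM in FH and at 361, 341 and 348 CPM at 3 h (log2 fold change 0.91, SE 0.37, adjusted p = 0.114). At 1 day it was already at 4.73, 3.05 and 4.04 CPM, 2.12% of FH, and it had no count at 14 days, at least 324-fold lower. The ligase thus kept a larger share of its FH level at 1 day than the transferase.

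Of the transport genes, the uptake carriers were lost first. Slc10a1 was at 1759, 785 and 891 CPM in FH and at 1684, 1701 and 2137 CPM at 3 h, with overlapping groups. At 1 day it was at 17.2, 26.9 and 8.59 CPM (log2 fold change -6.19, SE 0.51, adjusted p = 9.28e-09). No library held more than 1.93 CPM at 2 days or 0.957 CPM from 4 to 14 days. Slco1b2 went the same way, from 1586, 1743 and 1038 CPM in FH through 886, 530 and 1161 CPM at 3 h to 22.8, 13.2 and 7.07 CPM at 1 day. It had no count at 4 and 7 days, at least 3140-fold and 3710-fold lower.

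The canalicular pumps lasted longer. Abcb11 was at 757, 866 and 1671 CPM in FH and at 926, 752 and 618 CPM at 3 h. It stayed level for a day, at 107, 84.4 and 119 CPM at 1 day and 116, 50.1 and 126 CPM at 2 days, 9.42% and 8.86% of FH, before 35.5, 10.9 and 32.6 CPM at 4 days and 1.44 to 4.11 CPM at 7 days. Its log2 fold change against FH was -3.57 (SE 0.50) at 1 day and -8.95 (SE 0.67) at 7 days.

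Abcc2 kept a substantial level throughout. It was at 439, 481 and 399 CPM in FH and at 511, 620 and 690 CPM at 3 h, above every FH library but not called (log2 fold change 0.48, SE 0.30, adjusted p = 0.303). Its lowest mean was 52.9 CPM at 2 days, from 55.2, 48.9 and 54.4 CPM. It was at 158, 82.3 and 157 CPM at 7 days (log2 fold change -1.90, SE 0.31, adjusted p = 2.61e-05) and at 118, 102 and 82.4 CPM at 14 days (-2.27, SE 0.31). Every culture library from 1 day on lay below every FH library.

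Summed over their genes, the synthesis and conjugation group and the transport group were at like levels in FH, at 4211 CPM ± 651 (SD, n = 3) and 4138 CPM ± 355. At 3 h the sums were at 70.2% and 98.4% of FH, at 1 day at 8.64% and 4.95%, and at 2 days at 1.09% and 3.70%. At 14 days 0.121% of the synthesis sum and 2.52% of the transport sum were left, the latter nearly all Abcc2 (101 of 104 CPM). By these means the transport group kept the larger share of FH at 3 h, the synthesis group at 1 day, and the transport group again at 2 and 14 days. At 3 h the synthesis sums overlapped those of FH (2439 to 3698 and 3487 to 4748 CPM). The lower mean at 3 h was that of Cyp8b1 above all (2268 CPM in FH, 863 CPM at 3 h). Cyp7a1 and Slc27a5 had lower means too, Cyp7b1 was nearly level, and Cyp27a1 (181 and 466 CPM) and Baat (186 and 350 CPM) had higher ones. From 1 to 2 days the synthesis sum went from 364 to 46.0 CPM and the transport sum from 205 to 153 CPM. Abcb11 and Abcc2 made up most of the transport sum at both times.

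**Figure D2:**
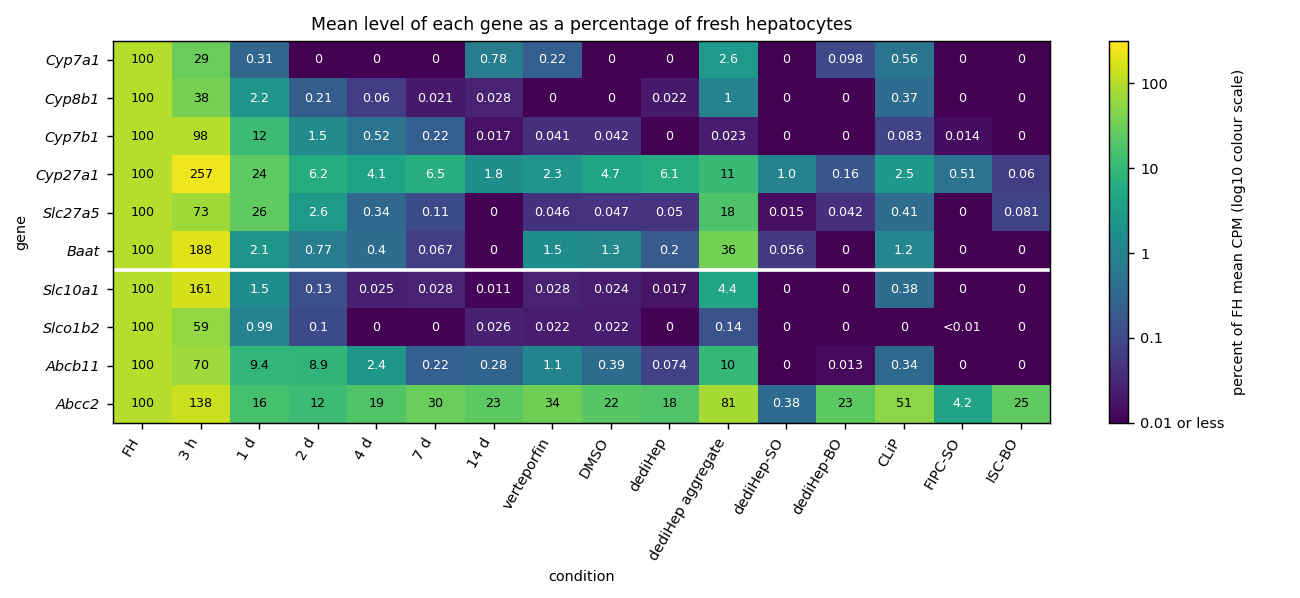
Mean CPM of each gene (rows, with synthesis and conjugation above the white line and transport below it) in each condition (columns) as a percentage of the FH mean, on a log10 colour scale. The row of Abcc2 is at 12% or more in 14 of the 16 columns, and the column of aggregates holds 4 further genes at 10% or more.

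The other genes of the pathway were followed as 5 lists. Of 55 genes outside the 10 (other enzymes of synthesis, peroxisomal side-chain shortening, other carriers, regulators and intestinal bile acid handling) 48 passed the low-count filter in the time course. At 3 h 5 of the 48 were called lower and 0 higher, beside 3.85% and 3.06% of all genes tested, and 4 of the 5 were regulators. Foxa2, a pioneer factor of the hepatocyte, fell by 2.76 on the log2 scale (SE 0.34, adjusted p = 1.47e-05, from 151 to 21.9 CPM), and was not called at any later time, at 109 CPM at 1 day (-0.63, adjusted p = 0.115), 152 CPM at 4 days and 253 CPM at 14 days. Prox1, a corepressor of the Cyp7a1 gene, fell by 2.91 (SE 0.43, from 741 to 98.1 CPM). Nr5a2 (LRH-1), an activator of Cyp7a1 and Cyp8b1, fell by 2.297 (SE 0.38, from 521 to 105 CPM). Nr5a2 was called lower at each later time too, and Prox1 at each but 7 days (-1.91, inside the fold threshold).

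At 14 days 35 of the 48 were called lower and 2 higher, beside 15.3% and 14.1% of all genes tested. Of the 17 regulators 12 were called lower and 0 higher, among them Cebpa (log2 fold change -4.75, SE 0.37) and the xenobiotic receptor Nr1i3 (1 count left, 625-fold lower). Hnf4a, the nuclear receptor that many of these genes depend on, kept 229 CPM at 14 days beside 378 CPM in FH (-0.85, adjusted p = 0.0275, inside the fold threshold). Nr0b2 (SHP), the repressor induced by bile acids, had no count at 1 day, at least 97.2-fold lower than in FH. Of the 8 peroxisomal genes 7 were called lower, led by the ligase Slc27a2 (1 count left, 4720-fold lower) and the sterol carrier protein Scp2 (-5.24). Among the 14 other carriers 9 were called lower, led by Slco1a1 (3 counts left, 2380-fold lower), and 1 higher. That 1 was Abcc4 (Mrp4), a basolateral efflux pump, which rose from at most 3.26 CPM in FH to 274 to 376 CPM at 14 days (log2 fold change 7.61, adjusted p = 3.36e-09). Osbpl3, an oxysterol-binding protein on the list of synthesis genes, was the other gene called higher (3.39).

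Whether expandable dediHeps differ from the 14-day culture was asked next. Against FH all 10 genes were called lower in dediHeps, as were 12.6% of all genes tested (13.1% were called higher). Genes at or near 0 in dediHeps passed the low-count filter only through FH, so they could only be called lower. Cyp7a1, Cyp7b1 and Slco1b2 had 0 counts in all 5 libraries, at least 526-fold, 2970-fold and 5500-fold lower than in FH. Slc10a1 held 2 counts and Slc27a5 4 counts over the 5 libraries. Only Abcc2 and Cyp27a1 were present in every dediHep library. Abcc2 was uneven, at 22.4, 107, 67.9, 184 and 15.9 CPM, and Cyp27a1 was at 3.29, 6.61, 29.6, 11.8 and 3.86 CPM. Both spreads overlapped those at 14 days. Against 14 days 0 of the 10 were called by edgeR or DESeq2, with 2 tested and 1 at an unadjusted p under 0.05, and 2.09% of all genes were called lower and 3.84% higher. The log2 difference was -0.36 for Abcc2 (95% interval -1.75 to 1.02) and 1.92 for Cyp27a1 (0.03 to 3.80). Without the first dediHep library Cyp27a1 was called higher (2.18, adjusted p = 0.0923).

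Verteporfin at 0.3 µM was compared with DMSO after 7 days, with 2 libraries each. By edgeR or DESeq2 0 of the 10 genes were called, with 3 tested and 2 at an unadjusted p under 0.05, and 0.0288% of all genes were called lower and 0.24% higher. Abcb11 was at 11.6 and 12.4 CPM with verteporfin and at 5.68 and 2.78 CPM with DMSO, without overlap (log2 fold change 1.5, 95% interval 0.36 to 2.64, adjusted p = 0.409). Abcc2 was at 164 and 131 CPM with verteporfin and 105 and 84.6 CPM with DMSO (0.63, 0.02 to 1.24, adjusted p = 0.530). Cyp27a1 was at 2.57 and 5.60 CPM with verteporfin and 6.94 and 10.0 CPM with DMSO (-1.05, -2.27 to 0.17). The synthesis sum was at 0.187% of FH with verteporfin and 0.274% with DMSO, beside 0.352% in the 7-day culture.

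Part of the pathway was higher in aggregates than in dediHeps. Of the 10 genes 6 were called higher, of 7 that passed the low-count filter, against 4.39% of all genes tested (5.11% were called lower). A gene near 0 in dediHeps passed the filter only through its level in aggregates. Slc27a5 was at 166, 52.6 and 141 CPM in aggregates and at 0.965 CPM or less in each dediHep library (log2 fold change 8.26, SE 0.64, adjusted p = 9.02e-05). Baat was at 76.6, 23.5 and 102 CPM against 0 in 4 dediHep libraries and 1.85 CPM in the other (7.00, SE 0.90, adjusted p = 0.00112). Every aggregate library lay above every dediHep library for both, and the conjugation enzymes stood at 17.7% and 36.2% of their FH means.

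Among the carriers, Slc10a1 returned to 56.5, 11.7 and 84.6 CPM, 276-fold above the 2 counts of dediHeps (95% counting interval 75.8 to 2290). Abcb11 returned to 115, 66.9 and 150 CPM (log2 fold change 7.07, SE 0.78, adjusted p = 0.000526), 10.1% of FH, with a range that overlapped that at 1 day in culture. Abcc2 was at 285, 407 and 371 CPM, 80.6% of FH, and was not called against FH (-0.48, 95% interval -1.19 to 0.24). Without TMM factors its mean was 337 CPM in aggregates and 297 CPM in FH. Its call against dediHeps (2.21, SE 0.63, adjusted p = 0.0413) was lost in 5 of the 8 fits that left out 1 library, namely either of the dediHep libraries 1 and 5 (1.97 and 1.94, under the fold threshold) or any of the 3 aggregate libraries (adjusted p = 0.103 to 0.115).

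The hydroxylases followed less. Cyp8b1 was at 6.19, 22.2 and 39.5 CPM in aggregates against at most 1.63 CPM in dediHeps (5.35, SE 0.81, adjusted p = 0.0027), which is 0.997% of FH. Cyp7a1 had 22 counts in the aggregates, at 1.55, 3.04 and 6.67 CPM, and did not pass the filter, at least 15.3-fold above 0 counts. Cyp27a1 was at 15.5, 22.6 and 22.1 CPM, within the range of dediHeps (0.86, 95% interval -0.58 to 2.29). Cyp7b1 held 1 count and the uptake carrier Slco1b2 11 counts over the 3 libraries, 0.0228% and 0.142% of FH. Slc10a1, the other uptake carrier, stood at 4.45% of FH.

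**Figure D3:**
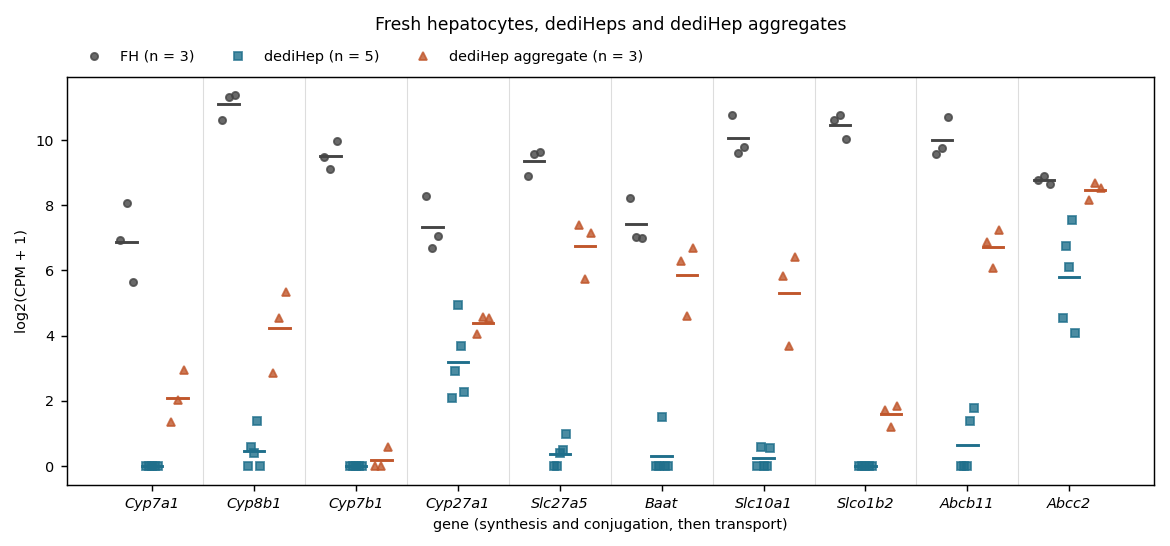
Level of each gene, log2(CPM + 1), in FH (circles, n = 3), dediHeps (squares, n = 5) and dediHep aggregates (triangles, n = 3), with points for libraries and short lines for means. Slc27a5, Baat, Slc10a1 and Abcb11 stand clear of the dediHeps in every aggregate library. Abcc2 in aggregates overlaps FH, with a mean CPM at 80.6% of that of FH, and Cyp7b1 and Slco1b2 stay below 2 in aggregates.

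Against FH 8 of the 10 genes were called lower in aggregates (9.78% of all genes). Genes near 0 in aggregates passed the low-count filter only through FH. Baat was past the FDR but not the fold threshold (log2 fold change -1.66, SE 0.57, adjusted p = 0.0517), and without the third aggregate library it was called too (-2.01). The hepatocyte marker sum was 837 to 4166 CPM in dediHeps and 6179 to 9613 CPM in aggregates, and the cholangiocyte marker sum was 1022 to 1636 CPM and 295 to 552 CPM. Their part in the result was not tested. Kupffer and endothelial markers were at 0.513 CPM or less in every aggregate library.

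Of the 55 pathway genes 42 were tested in aggregates against dediHeps, with 15 called higher and 0 lower, beside 4.39% and 5.11% of all genes tested. Here too a gene near 0 in dediHeps passed the filter only through aggregates, so it could only be called higher. Slc27a2 and Akr1d1, with 7 counts each over the dediHep libraries, were such genes. The regulators gave 6 of these 15, led by the oxysterol receptor Nr1h3 (3.24, adjusted p = 0.000526), its partner Rxra (2.53) and Ppara (3.75). Klb, the coreceptor through which Fgf15 represses Cyp7a1, was also called higher (2.52, from 2.01 to 11.8 CPM). Nr1h4 (FXR), the bile acid receptor, was at 96.4 CPM in aggregates and 102 CPM in dediHeps (-0.06, 95% interval -1.12 to 1.00). Slc27a2, the ligase of the peroxisomal list, rose by 7.13. Akr1d1, the 5-beta-reductase, rose to 10.4 to 30.2 CPM from at most 1.64 CPM (5.16), and Cyp2c70, the hydroxylase that makes muricholic acids, rose to 525 to 1098 CPM from at most 72.3 CPM (5.07). Cyp39a1, another oxysterol 7-alpha-hydroxylase, rose by 2.05 to 414 CPM, above its 49.5 CPM in FH (2.90, adjusted p = 0.000653). It was 1 of 3 pathway genes called higher in aggregates than in FH (6.78% of all genes), with Osbpl3 and Abcc4. Cyp39a1 and Cyp7b1, which act on different oxysterols, went opposite ways against FH.

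**Figure D4:**
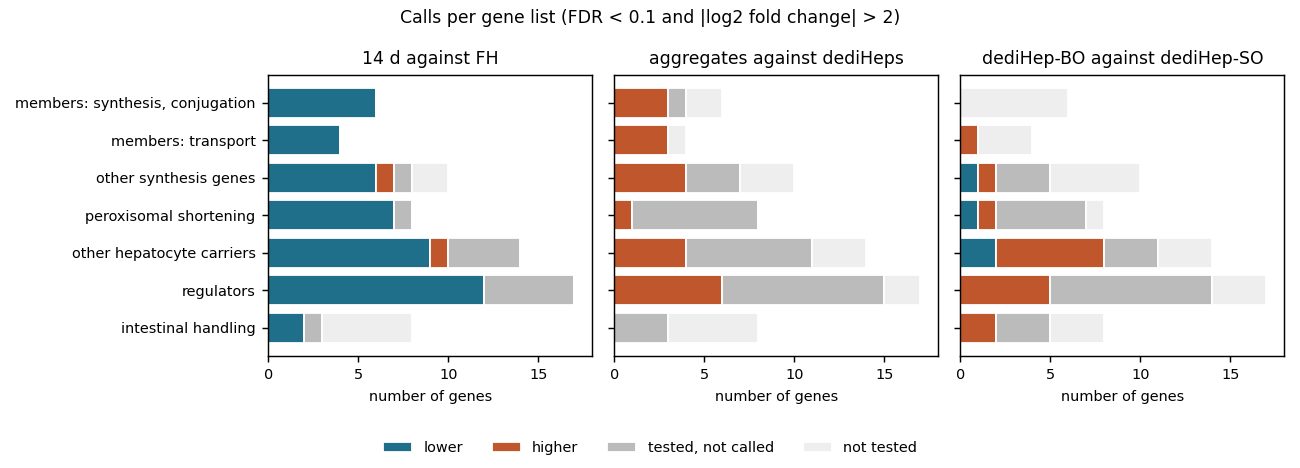
Number of genes called lower (blue), called higher (orange), tested but not called (grey) and not tested (light grey) in each list, for 14 days against FH, aggregates against dediHeps and dediHep-BOs against dediHep-SOs. The first panel is mostly blue in every list but the intestinal one, the second holds no blue, and in the third 1 of the 10 bile acid genes was tested.

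CLiPs were compared with FH and with dediHeps. Against FH 9 of the 10 were called lower (11.4% of all genes), and Abcc2 was at 153, 217 and 308 CPM (log2 fold change -1.07, SE 0.43, adjusted p = 0.0956, inside the fold threshold). Genes near 0 in CLiPs passed the low-count filter only through FH. Against dediHeps 0 were called by edgeR or DESeq2, with 2 tested and 0 at an unadjusted p under 0.05 (1.39% of all genes were called lower and 1.65% higher). One CLiP library stood apart. Without Abcc2, replicate 3 held 146 counts of the other 9 genes, beside 6 and 36 counts in replicates 1 and 2, among them Cyp8b1 at 24.4 CPM (0.512 and 0.224 CPM in the others) and Slc10a1 at 13.2 CPM (0 in both). Its hepatocyte marker sum was 5862 CPM beside 1289 and 1395 CPM. The count of 9 called against FH was 9 in every fit that left out 1 library, replicate 3 included.

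In organoids 8 of the 10 genes were at or near 0. Over the dediHep-SOs, dediHep-BOs, FIPC-SOs and ISC-BOs no library had more than 0.912 CPM of any of the 10 genes other than Abcc2 and Cyp27a1, and Cyp27a1 reached at most 3.17 CPM. Against dediHeps 2 genes, the only 2 tested, were called lower in dediHep-SOs (4.65% of all genes were called lower and 4.12% higher). Abcc2 was at 0, 0 and 4.98 CPM, all 11 counts being in 1 library (-5.56, SE 1.27, adjusted p = 0.0169; -10.55 without that library). Cyp27a1 was at 0.945, 1.51 and 3.17 CPM (-2.55, SE 0.84, adjusted p = 0.0824), which was lost in the fit with the culture as a replicate block (-2.34, adjusted p = 0.173) and without dediHep-SO replicate 1 or 2, and it did not pass the filter without dediHep replicate 2, 3 or 4.

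Abcc2 was present again in budding organoids. In dediHep-BOs it was at 78.6, 58.8 and 166 CPM. This was called higher than in dediHep-SOs (5.96, SE 0.94, adjusted p = 0.00153, and 10.91 without dediHep-SO replicate 3). Of all genes 5.6% were called higher and 5.68% lower. In each comparison between organoid groups given here Abcc2 was the only 1 of the 10 genes tested. Against dediHep-SOs it passed the low-count filter only through the other group, dediHep-BOs or FIPC-SOs. ISC-BOs stood at 101, 132, 75.3 and 128 CPM, overlapping dediHep-BOs (-0.07, 95% interval -0.84 to 0.71), and 0 of the 10 were called between these groups by edgeR or DESeq2, with 1 tested and 0 at an unadjusted p under 0.05 (1.71% of all genes were called lower and 1.34% higher). FIPC-SOs were at 24.4, 14.5 and 16.8 CPM. ISC-BOs lay above FIPC-SOs in all libraries (2.49, SE 0.33, adjusted p = 0.000498; 4% of all genes were called higher). dediHep-SOs lay below FIPC-SOs in all libraries (-3.53, SE 0.96, adjusted p = 0.0333; 3.99% were called lower), a call that was lost without dediHep-SO replicate 2 (adjusted p = 0.109), was -8.66 without replicate 3, and was lost with DESeq2 (adjusted p = 0.177). Budding organoids of both origins thus had Abcc2 near its level at 14 days in culture, and spherical organoids of both had less. The sum of 8 intestinal epithelium markers was 465 to 614 CPM in dediHep-SOs and 1086 to 1407 CPM in FIPC-SOs. It was 3300 to 3994 CPM in dediHep-BOs and 3443 to 4572 CPM in ISC-BOs. The stellate cell and fibroblast sum reached 76.9 CPM in dediHep-BOs, 195 CPM in FIPC-SOs, 8.21 CPM in ISC-BOs and 1.51 CPM in dediHep-SOs. The part of these cells in the result was not tested.

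**Figure D5:**
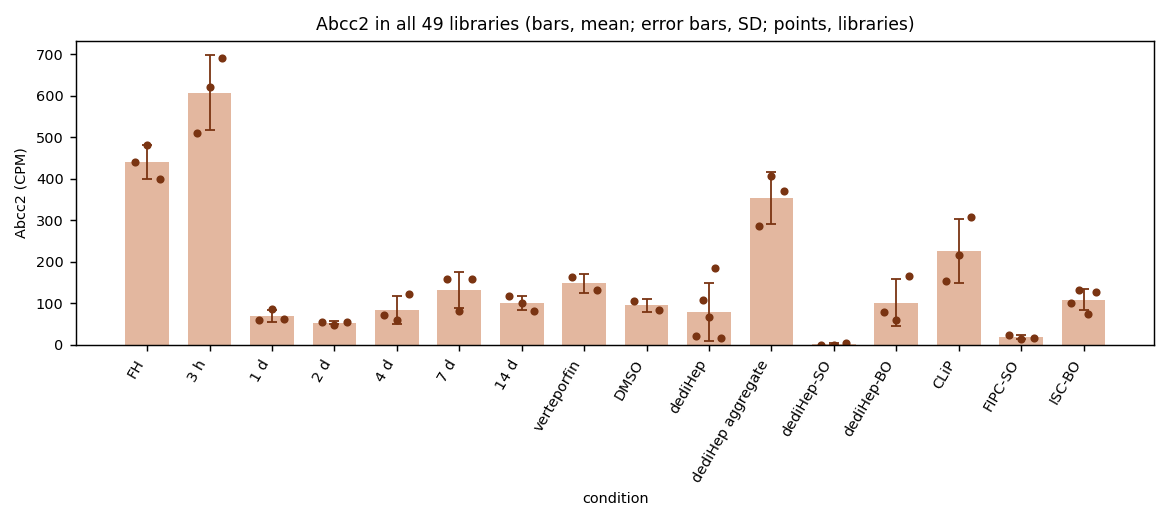
Abcc2 in CPM in all 49 libraries (points) with the mean (bars) and SD (error bars) of each condition. Fresh and 3 h hepatocytes and aggregates have the highest means, with libraries from 285 to 690 CPM that overlap the highest CLiP library at 308 CPM, and the 3 dediHep-SO libraries sit at 0 to 4.98 CPM, below the FIPC-SO libraries at 14.5 to 24.4 CPM.

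Across the 16 conditions the order of Abcc2 ran from 3 h (607 CPM), above FH without overlap, through FH, aggregates and CLiPs, each of which overlapped the next, down to 2 days, FIPC-SOs and dediHep-SOs. The other 9 genes were highest in FH or at 3 h. Aggregates had the next highest mean for Cyp7a1, Baat, Slc10a1 and Abcb11, and only for Baat did their libraries not overlap those of the condition that followed. Slc10a1 overlapped 1 day, Cyp7a1 overlapped 14 days and Abcb11 overlapped 1 day, with a mean of 111 CPM beside 103 CPM.

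Genes of intestinal bile acid handling were looked up in the organoids. Slc51a, a subunit of the basolateral exporter of enterocytes, was at 22.5 to 47.4 CPM in dediHep-BOs and 17.4 to 60.1 CPM in ISC-BOs, and at 0 to 1.81 CPM in dediHep-SOs (5.67 for dediHep-BOs against dediHep-SOs, adjusted p = 0.000914). Its partner Slc51b was at 5.19 to 21.6 CPM in dediHep-BOs, with no count in dediHep-SOs (at least 31.5-fold higher, adjusted p = 0.00206). Fabp6, the ileal bile acid binding protein, was at 2.11 CPM or less in every organoid library, and the bile acid receptor Gpbar1 at 0.562 CPM or less. Fgf15, the ileal hormone that represses Cyp7a1, was uneven in dediHep-SOs at 0, 1.26 and 33.5 CPM and was at 5.79 to 11.3 CPM in FIPC-SOs. Of 40 pathway genes tested between the dediHep-derived organoids, 15 were called higher in dediHep-BOs and 4 lower, beside 5.6% and 5.68% of all genes tested. A gene near 0 in 1 of these groups passed the low-count filter only through the other. Abcg5, a sterol exporter of liver and intestine, had the smallest p among the carriers (709-fold above 1 count, at 96.2 CPM), with Slco2b1 (log2 fold change 4.45) and Abcg2 (4.57) next, while Abcc4 fell by 2.16.

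Likeness over the 16 condition means of log2(CPM + 1) was described by Pearson's r among 12758 genes with at least 10 CPM in 1 condition. Points share libraries and a common contrast of fresh or 3 h hepatocytes with the rest, so r has no p here. Between pairs of the 10, r ran from 0.446 (Abcc2 and Cyp7b1) to 0.978 (Cyp8b1 and Slc10a1), and the r of Abcc2 with any other of the 10 was at most 0.655. The gene most like Slc27a5 was Asgr1, the asialoglycoprotein receptor (0.993). Cyp8b1 and Slc10a1 shared Haao, an enzyme of tryptophan breakdown, as the closest gene (0.988 and 0.99). Cyp7b1 was closest to Avpr1a (0.991), Slco1b2 to Zap70 (0.996), Abcb11 to Hao1 (0.978), Baat to Aldh8a1 (0.982), Cyp27a1 to Aqp9 (0.964), Cyp7a1 to AI182371 (0.981) and Abcc2 to Tpmt (0.896).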

How the data were processed

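Transcripts of 49 libraries were sequenced by CEL-Seq2, which tags each molecule with a unique molecular identifier (UMI) of 6 bases. The authors deposited a single matrix of UMI counts per Ensembl gene, as whole numbers without normalization, and 0 of its columns were left out. The submitters' processing notes list bcl2fastq 2.20, Bowtie2 2.3.1, HTSeq 0.6.0 and the build GRCm38. Their roles, the annotation and the use of strand are not given in the sources used here. The highest count in the table is 4096, the number of UMI sequences, in 4 libraries, so high counts are compressed.

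Groups came from the sample titles and nothing was left out. Counts were tested with the quasi-likelihood F-test of edgeR 4.0.16 (R 4.3.3, limma 3.58.1) after TMM scaling. Low genes were removed by filterByExpr at a minimum count of 10 and a total of 15, and p-values were adjusted by Benjamini-Hochberg over the genes kept. The study's limits were used for calls (FDR 0.1, log2 fold change 2 in either direction). FH and the 6 culture times formed 1 fit, and the 12 other comparisons were fitted on their 2 groups. The SE is the log2 fold change over the root of F. A group with 0 counts gave a bound against 3 counts over the group, and 1 to 3 counts gave a ratio with an exact 95% counting interval. Replicate libraries correlated at Spearman's rho of 0.84 to 0.94 over 54 pairs. Fits were tested on simulated data.

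The 10 genes and the other lists were chosen with earlier results of these data known. Named were the 10 genes throughout, up to 3 called genes of the smallest p per list, comparison and direction, regulators and intestinal genes by level, and the genes of highest r with each of the 10. Gm13613 and Gm13614 were named after their overlap was seen. Alternatives were RLE size factors, DESeq2 1.42.0, no low-count filter, all 49 libraries in 1 fit, a correction for UMI sequences used more than once, calls at FDR 0.05 and a log2 fold change of 1, a replicate block, leaving out each library, and CPM without TMM factors. Aggregates and dediHep-SOs share culture names with dediHeps in the labels, so there the block was the culture. Deviations of paired libraries correlated at 0.182 to 0.358 (aggregates, 3 pairs) and -0.499 to 0.045 (dediHep-SOs, 3 pairs).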

Additional observations from a re-analysis of the deposited data

Results flagged for a closer look

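Baat in the third dediHep library, at 1.85 CPM (6 counts), was the single non-zero value of its group, since the other 4 dediHep libraries had no count. With the others at 0, Dixon's ratio of gap to range is 1 for any value above 0, so passing its limit was fixed by the zeros, and the rate of about 1 in 20 sets that pass by chance does not apply. None of the other 5 sets of libraries examined passed the limit. The same library had the highest Cyp27a1 of its group (29.6 CPM).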

How the results depend on the processing

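Of the counts of genes called, those at 1, 2, 4, 7 and 14 days, in dediHeps, aggregates and CLiPs against FH, in aggregates against dediHeps, and of Abcc2 between budding and spherical organoids stayed within 1.5 times under every alternative. At FDR 0.05 and a log2 fold change of 1, 1 gene was called at 3 h and 1 in dediHep-SOs against dediHeps. DESeq2 called 0 between dediHep-SOs and FIPC-SOs. With all 49 libraries in 1 fit, 1 was called in dediHeps against 14 days (Cyp27a1, 2.00) and 4 higher in CLiPs against dediHeps (Cyp8b1, Cyp7b1, Slc27a5 and Slc10a1). CLiP replicate 3 held 50 of the 52 Cyp8b1 counts of CLiPs and all of the 17 Slc27a5 and 27 Slc10a1 counts. Cyp7b1 had 6 counts over the CLiP libraries. The replicate block gave 1 in dediHep-SOs against dediHeps, where it pairs cultures, and changed no other count (6 in aggregates against dediHeps). In the other comparisons libraries share only the replicate number of the title, with correlations from -0.575 to 0.558. At 3 h the block thus joined libraries with different label numbers (4 to 6 at 3 h, 2 to 4 in FH). Leaving out each library gave 0 to 1 at 3 h and in dediHeps against 14 days, 1 to 2 in dediHep-SOs against dediHeps, 0 to 1 against FIPC-SOs, 9 to 10 at 1 day, 5 to 6 in aggregates against dediHeps and 8 to 9 against FH, and no change elsewhere. Direction turned only for differences near 0: Cyp7b1 at 3 h (0.03 with RLE factors and with DESeq2, 0.05 with the block, 0.01 with all libraries, and -0.19 to 0.23 with 1 library left out) and Abcc2 in dediHep-BOs against ISC-BOs (-0.61 to 0.20 with 1 library left out). The cause of these changes was not tested. The UMI correction moved Cyp8b1 from -1.38 to -1.71 at 3 h. Without TMM factors 13 of 160 means moved by more than their SD, all but 1 in FH or at 3 h. The FH means of the 10 genes were all lower without these factors, so shares of FH depend on the scaling. Depth limits the groups with 0 counts to the bounds given.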
